A study of Mus musculus with 6 samples.

Results

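The mouse microRNAs that miRBase, the registry of microRNA names, numbered from 1000 to below 3000 were measured in a line of mouse kidney proximal tubular cells under 6 culture conditions. Members were taken by name alone, as every entry on the array with a number in that range, whatever its letter or arm. Entries miR-1897-5p, miR-1949, miR-1947-3p, miR-2137 and miR-2861 were left out by the rule. This gave 122 of the 1247 mouse microRNAs on the array. The cells were mProx24, from strain C57B6, measured on 1 one-colour Agilent microRNA array per condition, so no condition had a replicate. Oxygen was 20% for the control and for the cultures with high glucose or palmitate alone. Palmitate, the free fatty acid, was given at 150 µM with 0.15% albumin for 9 h, and the hypoxia culture had 1% oxygen for 12 h. The triple culture combined high glucose, palmitate and 1% oxygen. The last culture had the triple stimuli and rapamycin, an mTOR inhibitor, at 0.4 µg/ml, begun 12 h before palmitate. The glucose concentrations were not given in the sources used here. Albumin was given only with palmitate, so the effects of these agents cannot be told apart.

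A microRNA is a short RNA that guides an Argonaute protein to messenger RNAs, mainly through its seed, the stretch near the 5′ end that pairs with the target. It is cut from a hairpin whose arms each give a possible mature product, named 5p and 3p, and one arm is often kept in preference to the other. Higher miRBase numbers were assigned later, and many of these entries came from deep sequencing and are scarce or restricted in tissue. Proximal tubule cells reabsorb most of the glucose, salt and albumin that the glomerulus filters. As a check of the cell label, 7 of 16 listed kidney epithelial microRNAs were detected on all 6 arrays, namely miR-30a-5p to miR-30e-5p, miR-10a-5p and miR-10b-5p. The other 9, among them miR-192-5p, miR-194-5p, miR-204-5p and the miR-200 family, were not detected on any array. None of 4 blood and none of 2 fibroblast and smooth muscle microRNAs was detected.

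The palmitate and high glucose labels disagreed between the deposited files. In the table of processed values, the column labelled high glucose matched the scan labelled palmitate within 0.1% for 70.9% of the microRNAs compared, after 1 common factor. It matched the scan labelled high glucose for 1.48%. The column labelled palmitate matched the scan labelled high glucose for 70.6%. The other 4 columns matched their own scans for 68.7% to 73.5%. The scans' labels are used below, and every value attributed to high glucose or palmitate alone carries this doubt. The calls that rest on these 2 arrays are also given with the labels exchanged.

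Of the 12 members detected on at least 1 array, 8 were detected on all 6, and these are the members that the limma tests cover. Their mature sequences, from RefSeq on GRCm38.p6, are shown 5′ to 3′ with the seed, bases 2 to 8, in capitals.
miR-1224-5p: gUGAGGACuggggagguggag
miR-1895: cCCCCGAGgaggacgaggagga
miR-1934-3p: aGGAUGACgguggggcugguga
miR-1897-3p: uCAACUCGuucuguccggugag
miR-1906: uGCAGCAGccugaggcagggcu
miR-1904: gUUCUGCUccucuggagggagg
miR-1187: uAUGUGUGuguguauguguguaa
miR-1894-3p: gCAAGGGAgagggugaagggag

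The seeds of the 11 detected members with a sequence were all different, and no seed was shared among the 94 of 122 members that matched the RefSeq table. So the detected members do not form a seed family. Every one of the 195 member probes that could be compared was complementary to the 3′ end of its microRNA, over 10 to 19 bases. The target stretch of each detected member's shortest probe occurred in no other mature mouse sequence of the table. For miR-1224-5p that stretch was 10 bases long, the shortest among the detected members, and for miR-1187 it was 18.

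The hairpins lay on many chromosomes, and most of those detected lay inside a gene. miR-1224-5p (chr16:20604452-20604472, plus strand) lay within Vwa5b2 on the same strand, and its precursor is known as a mirtron, a short intron that splicing frees in place of Drosha. miR-1895 (chr3:134240515-134240536, minus strand) lay opposite to Cxxc4, which encodes an inhibitor of Wnt signalling. miR-1934-3p (chr11:69663092-69663113, plus strand) and miR-1187 (chr5:82798964-82798986, minus strand) lay in no listed gene. miR-1897-3p (chr3:34638511-34638532, plus strand) lay within the span of Sox2ot, a long non-coding RNA that overlaps Sox2. miR-1906 had one copy in Meg3 (chr12:109544588-109544609, plus strand), the maternally expressed long non-coding RNA, and another at chrX:88759485-88759506 on the minus strand. The copies have the same mature sequence, so the array cannot tell them apart. miR-1904 (chr13:109903819-109903840, plus strand) lay in Pde4d, a phosphodiesterase that degrades cyclic AMP, and miR-1894-3p (chr17:35917938-35917959, plus strand) in Ppp1r10, a regulatory partner of protein phosphatase 1. Exon and intron placement was not analysed here.

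Most members were below detection in these cells. Detection of a probe required that 0.5 or more of its spots be well above background by the scanner software, and a microRNA needed 1 such probe. On this rule 12 of 122 members (9.84%) were detected on at least 1 array, beside 198 of 1247 (15.9%) microRNAs in all. Among let-7 and entries numbered under 1000 the count was 137 of 798 (17.2%), among those from 3000 to below 5000 it was 20 of 145 (13.8%), and among those from 5000 up it was 25 of 177 (14.1%). The 5 entries left out by the rule held 4 that were detected, and with them counted 16 entries of this range were detected. Nothing was left out of the other ranges, so the share of this range is lowered by the rule. These shares were not tested against each other.

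The number of detected members was 9 for the control, 11 for high glucose, 8 for palmitate, 10 for hypoxia, 11 for the triple stimuli and 12 with rapamycin. Over all microRNAs the counts were 164, 189, 162, 172, 185 and 194 in the same order, so members and all microRNAs had their fewest on the palmitate array and their most on the rapamycin array. The brightness of the arrays mostly moved with these counts, except that the dimmest array was the control and not palmitate. Before scaling, the 75th percentile of the 281 probes detected on all arrays was 295 for the control, 360 for high glucose, 318 for palmitate, 335 for hypoxia, 346 for the triple stimuli and 382 with rapamycin. The part of array brightness in the number of members detected was not tested.

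Of the 110 members that were not detected, 79 had no spot well above background on any array. The 3 with the highest share of such spots were miR-1940 at up to 35%, miR-1896 at up to 30% and miR-1196-5p at up to 20%. The scanner software's own detection flag, set per microRNA beside its summed signal, was looser and marked 18 members on at least 1 array and 12 on all 6. The 6 that it added were miR-1196-5p, miR-1198-5p, miR-1231-5p, miR-1892, miR-1896 and miR-1940. Among them miR-1896 had a summed signal from 1.39 to 10.9 and was flagged only on the array labelled high glucose, while miR-1940 was flagged on 3 arrays. Fewer than 0.5 of the spots of either were above background on every array, and their levels are read no further.

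**Figure D1:**
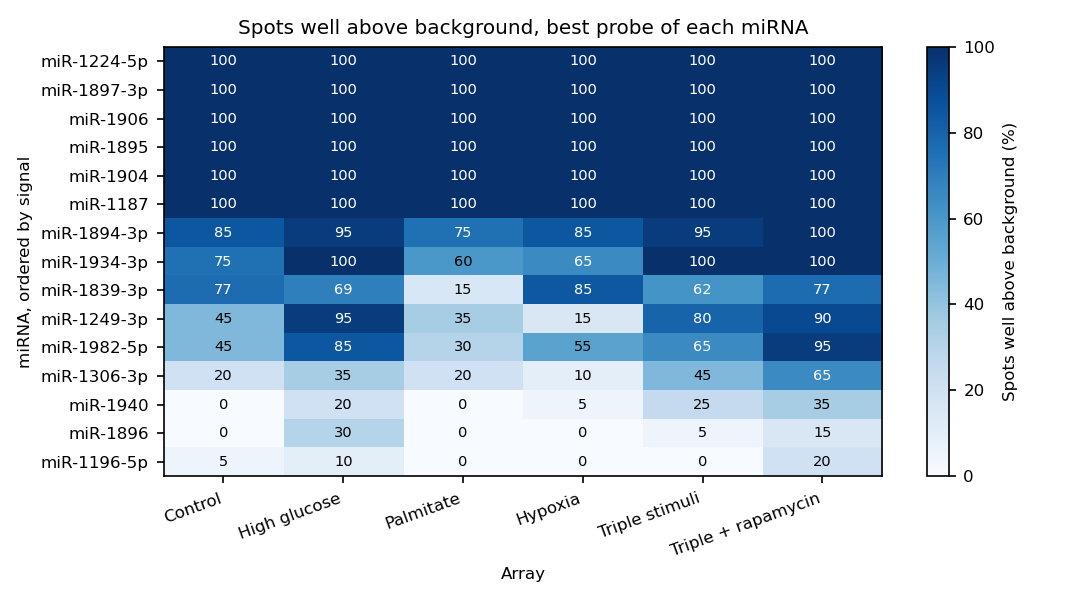
Percent of spots well above background for 12 detected members and the 3 undetected members with the highest shares (rows), on each of the 6 arrays (columns). The upper 6 rows are at 100% throughout, miR-1249-3p runs from 15% on the hypoxia array to 95% on the high glucose array, and miR-1940, miR-1896 and miR-1196-5p stay at or below 35%.

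The levels that follow are the mean processed intensity of the brightest probe of each microRNA, in arbitrary units, after each array was multiplied by 1 factor that set its 75th percentile equal to the others'. Probes differ in how they bind, so a level is comparable across arrays for 1 microRNA and not between microRNAs. Values are listed as control, high glucose, palmitate, hypoxia, triple stimuli, and triple stimuli with rapamycin. miR-1224-5p had intensities of 1969, 2486, 2054, 1772, 2412 and 2474. The 3 arrays with high glucose were above the 3 without, and the hypoxia array was the lowest. Its spots varied by a CV of 0.810% to 3.31% within an array, against a 1.40-fold span between the lowest and highest arrays.

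miR-1895 had intensities of 63.6, 97.4, 77.9, 59.0, 89.9 and 94.3. Again the arrays with high glucose were the upper 3 and did not overlap the others, with a span of 1.65-fold. miR-1934-3p had intensities of 29.7, 47.4, 26.3, 26.1, 35.7 and 32.9. The array labelled high glucose stood highest, the other arrays with high glucose were next, and the span was 1.82-fold, the widest of the 8 members detected on all arrays.

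The other 5 of these members showed no such split. miR-1897-3p had intensities of 153, 125, 164, 145, 177 and 149, with the array labelled high glucose lowest and the triple array highest. miR-1906 had 109, 110, 87.8, 94.6, 110 and 100.3, lowest on the palmitate array. For miR-1904 the values were 80.1, 82.1, 66.2, 65.3, 66.2 and 62.9, with the control and high glucose arrays above the other 4. miR-1187, whose sequence is mostly UG repeats, had 49.98, 54.5, 62.7, 46.1, 56.5 and 56.8, highest with palmitate. miR-1894-3p had 33.4, 33.0, 32.6, 29.4, 38.0 and 32.2, with the triple array highest and hypoxia lowest. The spans of these 5 ran from 1.26-fold for miR-1906 to 1.42-fold for miR-1897-3p.

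**Figure D2:**
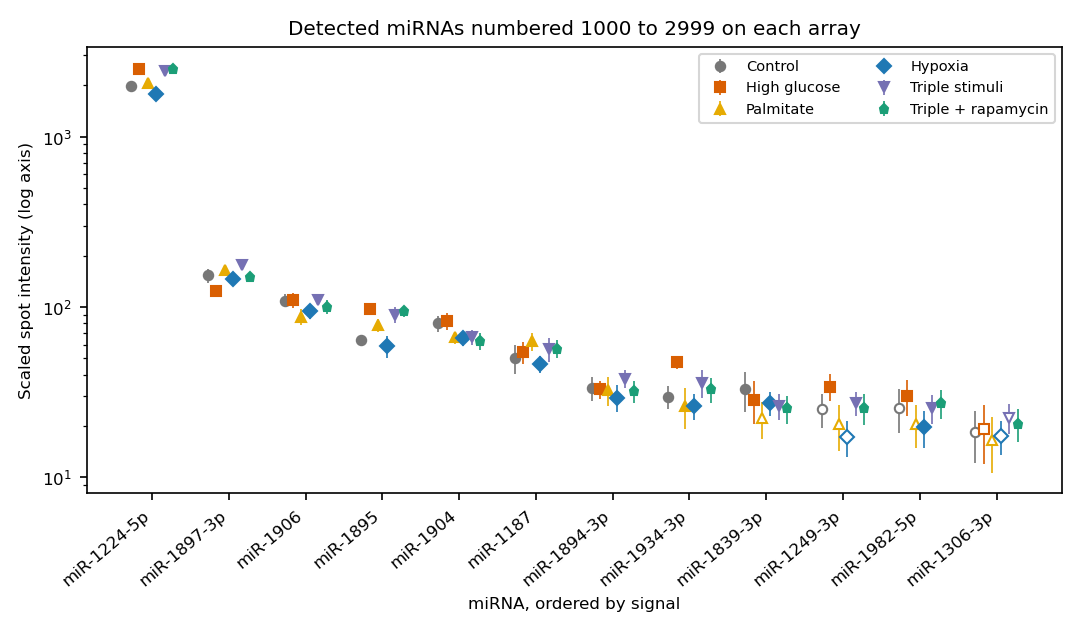
Scaled intensity (arbitrary units, log axis) of the 12 detected members on the 6 arrays. Bars are the SD over spots of 1 array, open markers are arrays on which the microRNA was not detected, and miR-1224-5p lies between 1772 and 2486 while miR-1306-3p is detected on the rapamycin array only.

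Another 4 members were detected on some arrays, close to the detection limit. Sequences of 3 of these are shown with the seed in capitals, because their calls turn on the limit. The RefSeq table held none for miR-1839-3p.
miR-1249-3p: aCGCCCUUcccccccuucuuca
miR-1982-5p: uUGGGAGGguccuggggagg
miR-1306-3p: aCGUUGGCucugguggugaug

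miR-1249-3p (chr15:84951545-84951566, minus strand), within the gene 5031439G07Rik, had 25.2, 34.1, 20.4, 17.2, 27.2 and 25.5 and was detected on the 3 arrays with high glucose. With the labels exchanged, it would be detected with palmitate alone and not with high glucose alone. Of its 20 spots, the share above background was 45% in the control, 35% with palmitate and 15% in hypoxia, against 95%, 80% and 90% on those 3 arrays. miR-1982-5p (chr10:80828808-80828827, plus strand) lies in Oaz1, the antizyme that limits polyamine synthesis. It had 25.6, 30.1, 20.6, 19.7, 25.5 and 27.2, and was not detected on the control and palmitate arrays. In hypoxia it was detected through its second probe, with 55% of spots above background, while the probe that gave the level, the dimmer of its probes on that array, had 25%.

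miR-1839-3p had 32.9, 28.5, 22.2, 27.1, 26.2 and 25.4 and was undetected on the palmitate array alone. miR-1306-3p (chr16:18284248-18284268, minus strand) lies in Dgcr8, which encodes the partner of Drosha in the cutting of hairpins. It had 18.4, 19.3, 16.6, 17.4, 22.4 and 20.6, and was detected with rapamycin only, although its triple value was higher. All 4 carried the software's flag on all 6 arrays.

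Both arms of 31 hairpins were among the members, and where a hairpin was detected it was through 1 arm. For miR-1224 the 5p arm was detected on 6 arrays at a summed signal of 700 to 1111, while the 3p arm never exceeded 0.925. For miR-1249, miR-1306, miR-1839, miR-1894 and miR-1934 the 3p arm was detected and the 5p arm on no array. The highest 5p value among these was 1.41, for miR-1894, whose 3p arm ran from 11.1 to 15.3. miR-1897 was the exception in that both arms were detected on all 6 arrays, with 73.6 to 102 for the 3p arm and 14.0 to 32.9 for the 5p arm, which the rule leaves out. Probes of the arms differ in sequence, so these signals show which arm was above background and not their ratio.

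The detected members were richer in G and C than the undetected ones as a description, with no test. Among the 94 with a sequence, the median GC content was 63.6% for 11 detected and 56.5% for 83 undetected members. The median G content was 42.9% against 28.6%. Over the whole series the GC medians were both 50%, for 163 detected and 854 undetected microRNAs. A GC gap was present in the other late-numbered ranges too, with medians of 61.9% against 52.4% from 3000 to below 5000 and 64.2% against 52.2% from 5000 up. From 60% to below 70% GC, 6 of 27 members were detected, and from 70% up 2 of 6. From 40% to below 50% none of 16 was, and from 50% to below 60% 2 of 39 were. miR-1187 at 34.8% GC was the only detected member with a sequence below 50%. Its probes, at 18 to 19 bases, were the longest of any detected member whose sequence was known. In all microRNAs the share detected was 24.2% from 60% to below 70% GC and 35.6% from 70% up, against 11.0% to 16.4% in the lower ranges.

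**Figure D3:**
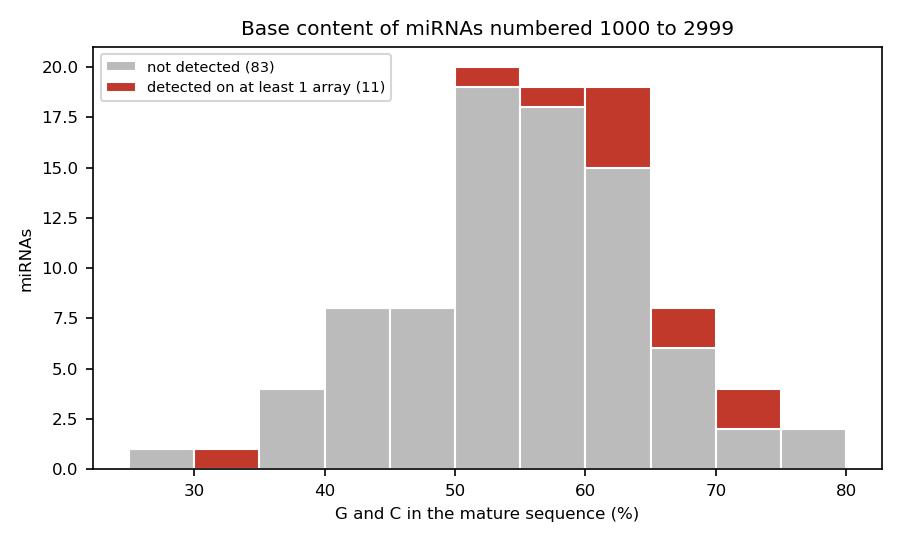
Number of members (vertical axis) by percent of G and C in the mature sequence (horizontal axis, bins of 5 points), for the 94 with a sequence. Detected members, in red, lie at 50% or more apart from miR-1187 at 34.8%.

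With 1 array per condition, a difference between 2 arrays has no replicate check, and no p-value is given. A member was called where it was detected on both arrays, differed by at least 1.5-fold and differed by more than 2 standard errors (SE) of its spots. Spot error covers the spread within an array only.

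High glucose against the control asked what glucose alone did at 20% oxygen. Of 9 members detected on both arrays, 2 were called higher and 0 lower, where 6.79% of all 162 microRNAs tested were called higher and 0% lower. miR-1895 was higher by 0.61 on the log2 scale (spot SE 0.03), which is 1.53-fold, and miR-1934-3p by 0.67 (spot SE 0.06), which is 1.60-fold. miR-1224-5p was 0.34 above the control (spot SE 0.01), under the fold required, and miR-1897-3p was 0.30 below it (spot SE 0.04). The median over the 9 was 0.04, beside -0.05 over all microRNAs, and its sign turned with the scaling, from -0.10 with quantile normalisation to 0.32 without scaling. Both calls lay just past 1.5-fold. The second probe of miR-1895 gave 0.38, and that of miR-1934-3p was not detected on any array. With the labels exchanged, no member was called higher, and miR-1934-3p was at -0.18. For members undetected in the control, miR-1249-3p was 1.36-fold and miR-1982-5p 1.18-fold higher. These ratios use the control probe's own signal, which lay above the lowest detected signal of that array, so they are not bounds.

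Palmitate against the control gave no call among 8 members, where 0% of 155 microRNAs were called higher and 2.58% lower. The members ran from -0.31 for miR-1906 to 0.33 for miR-1187, with 4 above and 4 below 0 and a median of 0.01, beside -0.03 over all microRNAs. With the percentile taken over all probes the median was 0.20, and with quantile normalisation it was -0.0033. Only 11.4% to 13.3% of microRNA spots on an array were well above background, so the percentile over all probes falls among undetected probes. miR-1895 was 0.29 above the control (spot SE 0.04) and miR-1904 was 0.28 below it (spot SE 0.05). For miR-1839-3p, which was not detected with palmitate, the control was at least 1.42-fold higher. This bound sets the control against the lowest detected signal of the palmitate array, which was above the probe's own signal there. With the labels exchanged, miR-1895 and miR-1934-3p were the 2 members called.

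Hypoxia against the control gave no call among 9 members, where 0% of 162 microRNAs were called higher and 1.85% lower. All 9 members were below the control, from -0.30 for miR-1904 to -0.08 for miR-1897-3p. Their median was -0.18, beside -0.11 over all microRNAs, of which 24.7% were above 0. The side of 0 depended on the scaling, since without it the median of the members was 0.00 and that of all microRNAs 0.08. The largest difference, that of miR-1904, was 1.23-fold (spot SE 0.05 on the log2 scale).

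The triple stimuli against the control gave no call among 9 members, where 5.59% of 161 microRNAs were called higher and 0% lower. The members ran from -0.33 for miR-1839-3p to 0.50 for miR-1895, with 7 above 0 and a median of 0.19, beside 0.01 over all microRNAs. The sign of that median also turned, to -0.03 with quantile normalisation and -0.06 with normexp background correction, while it was 0.42 without scaling. Normexp adds an offset of 50 to every spot, which narrows the ratios of dim members. miR-1895 at 1.41-fold (spot SE 0.04) came nearest to a call. miR-1224-5p was at 0.29, miR-1934-3p at 0.27 and miR-1897-3p at 0.21, while miR-1904 was at -0.27.

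The triple stimuli against hypoxia asked what high glucose and palmitate did together at 1% oxygen. Of 10 members 1 was called higher and 0 lower, where 8.77% of 171 microRNAs were called higher and 0% lower. The call was miR-1895, higher by 0.61 (spot SE 0.06), which is 1.53-fold, and its second probe gave 0.54. miR-1934-3p at 0.45 (spot SE 0.08), miR-1224-5p at 0.45 (spot SE 0.01) and miR-1894-3p at 0.37 (spot SE 0.07) were above hypoxia and under the fold required. In all 9 of 10 members were above 0, with miR-1839-3p at -0.05 the exception. Counted among them, miR-1982-5p at 0.20 used the lowest detected signal of the hypoxia array (22.2) in place of its probe's own 19.7. The median was 0.29, beside 0.10 over all microRNAs. This comparison shares the triple array with the one before and does not use the arrays whose labels disagree.

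Rapamycin, compared within the triple stimuli, gave no call among 11 members, where 2.17% of 184 microRNAs were called higher and 1.63% lower. The members lay between -0.25 for miR-1897-3p and 0.09 for miR-1982-5p. Their median was -0.07, and so was that of all microRNAs. Both turned positive with the percentile over all probes (0.15 for the members, 0.16 for all) and without scaling (0.07 for each). That percentile falls among undetected probes. With the percentile over all probes miR-1897-3p was at -0.02 and miR-1894-3p at -0.01, against -0.24 (spot SE 0.06) for miR-1894-3p in the main scaling. miR-1895, miR-1224-5p and miR-1187 were within 0.07 of the triple array.

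**Figure D4:**
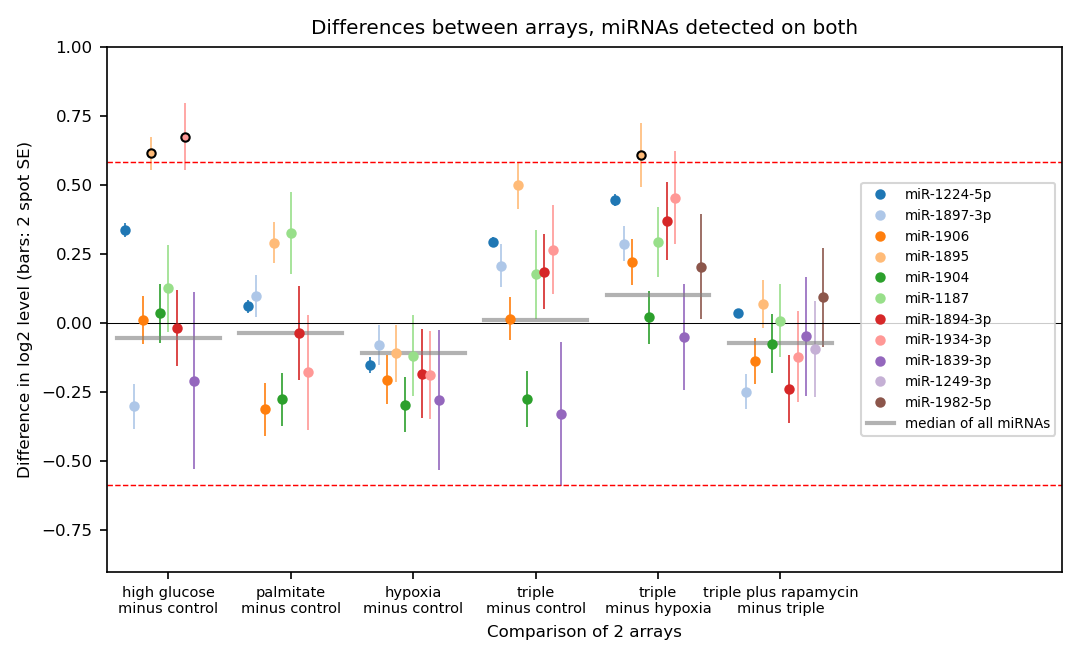
Log2 difference of each member detected on both arrays, in the 6 comparisons of 2 arrays. Bars are 2 spot SE, black rims mark called members, grey lines are the median of all microRNAs and dashed lines 1.5-fold; only miR-1895 and miR-1934-3p against the control in high glucose, and miR-1895 in triple stimuli against hypoxia, pass.

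The arrays were also set in 2 groups of 3, so that limma could test the 154 microRNAs detected on all 6 arrays, 8 of them members. Each group pools 3 differently treated cultures, whose spread is treatment as well as error. Between the 3 arrays at 1% oxygen and the 3 at 20%, no member of 8 passed limma's test at an adjusted p of 0.05, and 0% of all microRNAs did. At an unadjusted p under 0.05 no member and 4.55% of all microRNAs passed. The lowest adjusted p of a member was 0.884 with limma, for miR-1904, which was 0.23 lower at 1% oxygen (SE 0.10, with means of 6.02 ± 0.04 and 6.24 ± 0.17, SD, n = 3). No member had groups that did not overlap, where 11% of all microRNAs had. The arrays at 1% oxygen filled a row of the slide and those at 20% another, so row and oxygen cannot be told apart.

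Between the 3 arrays with high glucose (alone, in the triple stimuli, and with rapamycin) and the 3 without, 2 of 8 members passed limma's test, where 9.74% of all 154 microRNAs did. miR-1224-5p rose by 0.35 on the log2 scale (SE 0.08, limma adjusted p = 0.0335), from 10.91 ± 0.11 to 11.26 ± 0.02 (SD, n = 3). miR-1895 rose by 0.50 (SE 0.11, limma adjusted p = 0.0335), from 6.05 ± 0.21 to 6.55 ± 0.06 (SD, n = 3). miR-1934-3p differed by 0.48 (SE 0.14) and did not pass, with a limma adjusted p = 0.0800. Each of these was higher on 3 of 3 arrays with high glucose than on any without. That made 3 of 8 members with groups that did not overlap, where 29.2% of all microRNAs had such groups. With the labels exchanged it was 1 of 8, miR-1187, where 7.79% of all had. The other 5 members lay between -0.05 for miR-1897-3p and 0.14 for miR-1906.

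Within each oxygen level these 3 members, and miR-1906, were higher on the arrays with high glucose. At 20% oxygen the high glucose array was set against the mean of the control and palmitate arrays. At 1% oxygen the mean of the triple and rapamycin arrays was set against the hypoxia array. The triple and rapamycin cultures also had palmitate and albumin, so glucose cannot be told apart from these at 1% oxygen. miR-1224-5p differed by 0.31 at 20% oxygen and by 0.46 at 1%. miR-1895 differed by 0.47 and 0.64, and miR-1934-3p by 0.76 and 0.39. miR-1906 differed by 0.17 and 0.15. With the oxygen level as a block, added after the data were seen, miR-1224-5p, miR-1895 and miR-1934-3p passed limma's test at an adjusted p = 0.0240, 3 of 8 members where 8.44% of all microRNAs passed. miR-1897-3p went from -0.35 at 20% oxygen to 0.16 at 1%. The differences at 20% oxygen rest on the 2 arrays whose labels disagree. Exchanged, they were -0.11 for miR-1224-5p, -0.02 for miR-1895, -0.51 for miR-1934-3p and -0.32 for miR-1906, and with the block no member and 0% of all microRNAs passed. The lowest adjusted p of a member was then 0.872 with limma.

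These calls rest on few arrays. Without the control, high glucose, hypoxia, triple or rapamycin array, each left out alone, no member passed limma's adjusted test, and without the palmitate array 2 did. Each of these tests had fewer arrays. The differences in them ran from 0.29 to 0.40 for miR-1224-5p and from 0.41 to 0.62 for miR-1895. With the high glucose and palmitate labels exchanged, 0 of 8 members and 0 of 154 microRNAs passed, the lowest adjusted p of a member was 0.813, and miR-1934-3p was at -0.08. By the labels of the processed values the same 3 arrays would be those with palmitate, so glucose and palmitate cannot be told apart in this split. The arrays with high glucose were also the brighter ones before scaling, at 346 to 382 against 295 to 335. The part of that brightness in the result was not tested.

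**Figure D5:**
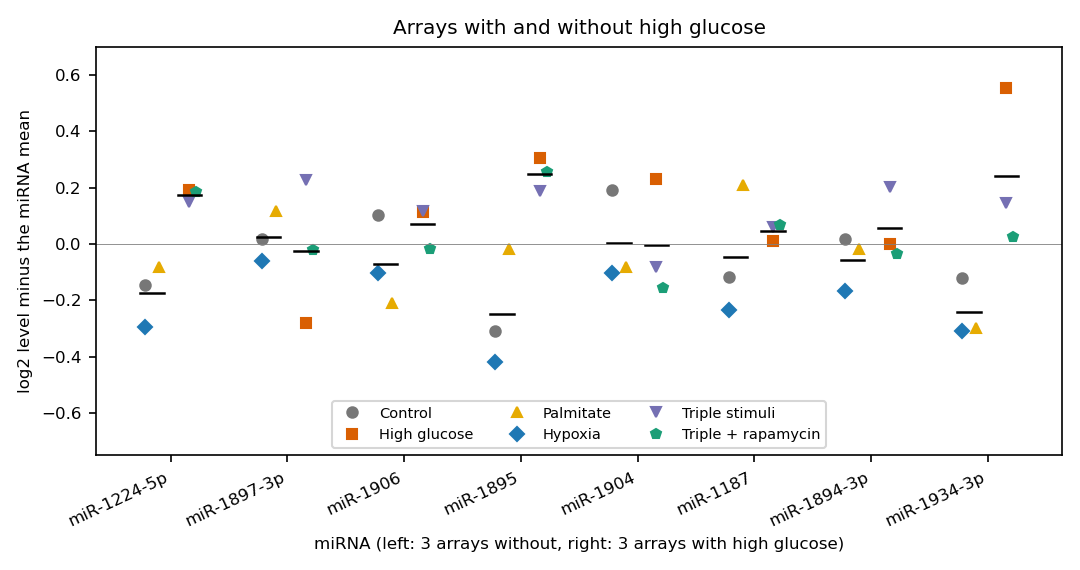
Log2 level minus the microRNA's mean over 6 arrays, for the 8 members detected on all arrays, with the 3 arrays without high glucose at left and the 3 with it at right. Black lines are group means; the groups do not overlap for miR-1224-5p, miR-1895 and miR-1934-3p, and overlap for the other 5.

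The deposited table of processed values held all 122 members. In it 18 lay above their column's minimum in at least 1 column, and 12 in all 6. Those minima ran from 0.00341 to 0.00475, and most microRNAs of a column shared its minimum. For miR-1224-5p the table gave 33.2, 35.2, 35.7, 31.7, 37.1 and 38.6 in the order of its own column labels, with hypoxia lowest and rapamycin highest. For miR-1895 it gave 1.39, 1.59, 1.74, 1.28, 1.65 and 1.83. That is a log2 range of 0.53, so no pair of columns differed by 1.5-fold. For miR-1934-3p it gave 0.348, 0.311, 0.656, 0.322, 0.381 and 0.364, a log2 range of 1.08, with the column labelled palmitate highest.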

How the data were processed

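Small RNA of mProx24 cells (100 ng of RNA per array, labelled with Cy3) was hybridised to 1 Agilent one-colour array per condition and read with Feature Extraction 10.7.3.1, per the file headers. The deposited scanner intensity used here is background-subtracted by that software. The deposited value table holds a signal per microRNA whose scaling the sources used here do not give. Spots flagged as outliers (4.04% to 5.18% of member spots) were left out and the rest averaged per probe. Array brightness was set equal at the 75th percentile of the 281 of 3105 probes detected on all arrays. Values were floored at the lowest detected signal, log2 was taken, and the brightest probe stood for a microRNA. No spot was saturated. Differences of 6 array pairs and of 2 groupings of 3 arrays (limma 3.58.1, Benjamini-Hochberg over 154 microRNAs) were computed in R 4.3.3 and Python 3.11.15, and both rules were tested on simulated data. Arrays are single, so their number limits the precision, and p-values measure only the spread between these samples. Members, lists and tests were chosen with earlier results of these data known. Every member detected on at least 1 array is named, and of the rest the 3 with the highest share of spots above background. Alternatives covered scaling, background correction, probe summary, detection rule, the 5 left-out entries, the exchanged labels, the oxygen level as a block (added after the data were seen) and each array left out. Of 122 members, 94 matched RefSeq's mature sequences. Exon placement and the sequence of miR-1839-3p were not analysed here.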

Additional observations from a re-analysis of the deposited data

How the results depend on the processing

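The count of detected members stayed within 1.5 times of 12 under every alternative run: 18 with the software's flag, 10 with 0.9 of spots required, and 16 with the 5 left-out entries counted. The calls were less stable. Among the alternatives below, the percentile over all probes falls among undetected probes. For high glucose against the control, the 2 members called became 1 with the percentile over all probes, 0 with quantile normalisation, normexp, summed signals or the mean of all probes, 1 at 0.9 of spots, 5 with the left-out entries, and 0 with the labels exchanged. Without scaling 3 were called, miR-1224-5p being added. Summed signals carry the software's own error in place of the spot SE, and there miR-1934-3p was at 0.62 (error 0.33). For palmitate against the control, exchanging the labels gave 2 in place of 0. For the triple stimuli against the control, 0 became 1 without scaling and 2 with the left-out entries. Against hypoxia, 1 became 0 with the all-probe percentile, quantile normalisation, normexp, summed signals, the mean of probes or 0.9 of spots, and 4 with the left-out entries. Rapamycin against the triple stimuli went from 0 to 1 with the left-out entries. With high glucose against without, 2 became 4 with the left-out entries, 0 with the all-probe percentile, 5 without scaling, 0 with quantile normalisation, 1 with normexp, 0 with summed signals, 0 with the labels exchanged (also with the oxygen level as a block), and 0 to 2 with 1 array left out. The count over all 154 microRNAs moved too, from 15 to 48 without scaling, 23 with quantile normalisation, 11 with the all-probe percentile, 9 with normexp and 0 with the labels exchanged, and to between 1 and 15 with 1 array left out. miR-1895 in high glucose was called in 2 of 8 alternatives, at 0.25 to 0.90, and in the triple stimuli against hypoxia in 1 of 7, at 0.31 to 0.66. miR-1934-3p in high glucose was called in 2 of 7, at -0.18 to 0.96, and with the labels kept its lowest value was 0.09, with normexp. Between the groupings it was 0.05 with normexp (limma adjusted p = 0.744) and 0.17 with the mean of all probes (limma adjusted p = 0.558). Normexp adds an offset of 50 to every spot, beside unscaled means of 25.9 in the control and 50.4 in high glucose for miR-1934-3p. A smaller ratio is thus built into that setting for dim members. The mean of all probes includes its second probe, which was not detected on any array. With the labels exchanged miR-1934-3p was at -0.18 against the control, -0.084 between the groupings and -0.061 with the block. Other causes were not tested. No paired analysis was possible because each condition had 1 array and the labels give no replicate numbers. Signals near background leave the 4 members detected on only some arrays with limited values in comparisons where an array did not detect them. These are a bound, a ratio to an undetected signal, or no value.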
